A study of Mus musculus with 9 samples.

Results

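The kinetochore and mitotic checkpoint genes described here are 42 genes chosen by symbol, and each was found once among the 24138 loci of the deposited table. RNA was measured in 9 libraries of whole mouse kidneys at E15.5, 3 of each genotype, from animals on a C57Bl6/J background. Foxd1GC/+;Ntn1fl/fl kidneys (MUT) carry 1 *Foxd1* allele with a GFP-Cre insertion and both floxed *Ntn1* alleles. Foxd1GC/+;Ntn1fl/+ kidneys (HET) carry the same *Foxd1* insertion with 1 floxed *Ntn1* allele. Ntn1fl/fl kidneys (WT) carry both floxed alleles and no Cre, so every kidney had at least 1 floxed *Ntn1* allele and the MUT and HET kidneys both lacked 1 intact copy of *Foxd1*. The Cre is driven by *Foxd1* and acts in the kidney stroma, whereas RNA came from the whole organ. The kidneys came from 3 crosses, embryos of both sexes were used, and libraries are numbered 1 to 3 within each genotype. *Zwilch* and *Nsl1* were named by the study for a lower level in MUT than HET libraries of this same set, so their values below are not independent evidence of that direction.

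The kinetochore is the protein assembly that joins a chromosome to the spindle. It is built on nucleosomes that hold the histone variant CENP-A, which a constitutive network of CENP proteins reads, and the MIS12 and NDC80 complexes then carry the assembly out to the microtubule. Kinetochores without microtubules hold the RZZ complex, Mad1 and Mad2, and the checkpoint made there inhibits Cdc20, the activator of the anaphase promoting complex, until all chromosomes are attached. Many of these genes are transcribed mainly in G2 and mitosis, so in a growing kidney their RNA comes from dividing cells, among them nephron, stromal and ureteric progenitors. In RNA from whole organs, fewer dividing cells and less RNA per dividing cell cannot be told apart. By EdU labelling at E15.5 and other stages, the study found no significant difference in the labelled share of nephron progenitors or ureteric tip cells. It reports no such count for stromal cells.

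Triplets of values below are in the order of libraries 1, 2 and 3. Values are FPKM, fragments per kilobase of transcript scaled to library size, which allow levels of different genes to be set side by side. Relative depth, read from the spacing of the lowest FPKM with WT-1 set to 1, ran from 0.572 in WT-2 to 1.28 in MUT-1. *Ntn1* lay between 17.8 and 28.9 FPKM in the WT libraries, between 12.02 and 16.5 in HET and between 10.8 and 16.5 in MUT. The RNA level of the whole locus in whole kidneys thus separated both Cre genotypes from WT but not MUT from HET. This level does not measure Ntn1 protein. By immunostaining, the study found little to no Ntn1 protein around the nephron progenitors of MUT kidneys. It also found *Ntn1* RNA outside the stroma, at a lower level in the proximal tubule. *Foxd1* stood at 25.8 to 33.7 FPKM in WT, 20.2 to 21.7 in HET and 22.5 to 24.8 in MUT. The kidney label held, with the nephron progenitor gene *Six2* at 57.8 to 106.5 FPKM, and all 5 adrenal and gonad markers summed to at most 1.94 FPKM in every library. HET-2 held liver transcripts, with *Alb* at 243.8 FPKM against 0.213 to 4.77 in the other libraries, and the 8 liver markers summed to 793 FPKM there against 33.6 to 59.4 elsewhere. Over the 9978 loci with a mean of at least 5 FPKM, WT-3 was most often at the extremes, being the lowest of the 9 libraries for 19.6% and the highest for 21.2%, followed by MUT-2 at 18.6% and 15.0% and MUT-1 at 14.5% and 15.6%. Among the kinetochore genes MUT-2 was the lowest library most often, and values without HET-2 or MUT-2 are given beside the results they move most.

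All 42 genes were transcribed in these kidneys, over a 32.1-fold range of level. The mean over 9 libraries ran from 3.97 FPKM for *Cenpo*, a subunit of the centromere network, to 127 FPKM for *Birc5* (survivin), the subunit that places the chromosomal passenger complex on the centromere. The median gene stood at 24.2 FPKM, 11 genes stood at 50 FPKM or more, 15 from 20 to under 50 and 16 under 20. The most abundant genes came from different layers of the kinetochore. They were *Birc5*, then *Zwint*, which anchors the RZZ complex, at 116 FPKM, then *Cenpa*, the histone variant itself, at 101 FPKM, and *Bub3*, the partner of the Bub1 and BubR1 kinases, at 95.7 FPKM.

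Subunits of 1 complex did not share 1 level. Within the NDC80 complex, *Spc25* averaged 78.6 FPKM and its partner *Spc24* 44.1 FPKM, whereas *Nuf2* and *Ndc80*, the pair that touches the microtubule, averaged 31.8 and 25.0 FPKM. Within the MIS12 complex, *Pmf1* averaged 65.0 FPKM and the other 3 subunits 13.8 to 19.0 FPKM. Within the SKA complex, which holds the kinetochore to a shortening microtubule, *Ska2* averaged 51.9 FPKM, *Ska3* 16.6 FPKM and *Ska1* 8.02 FPKM. The deposited loci of *Ska2*, *Cenpo*, *Mis12* and *Cdc20* each span more than 2 times the annotated gene, so their FPKM are those of a joined locus and may take in neighbouring transcripts. For *Ska2* the locus covers 971959 bases against 15402 in the annotation. Under that bound, the loci of *Zwilch* (55785 against 35961 bases) and *Cenpk* (44501 against 23782) are also longer than annotated. The locus of *Mad2l1* is shorter, at 5524 against 11831 bases.

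Promoters of mitotic genes often carry a cell cycle homology region, TTTGAA, which the DREAM and MuvB complexes bind, and CCAAT boxes, which NF-Y binds. Both were searched for in RefSeq windows from 250 bases before to 50 bases after each start (GRCm38.p6), on both strands, and 36 of the 42 genes had a window. No window was used for *Aurkb*, *Incenp*, *Nsl1*, *Ska1*, *Spc24* and *Zwilch*. TTTGAA was present for 18 of 36 genes (50%) against 20.2% of 27025 genes, and CCAAT for 25 (69.4%) against 41.1%. At least 2 CCAAT were present for 17 genes (47.2%) against 13.3%, both motifs for 15 (41.7%) against 8.97%, and neither for 8 (22.2%) against 47.7%. Over the 40 windows of these genes, the first base of CCAAT had a median position of -65 and that of TTTGAA of -8 relative to the start. At -50 or later began 15 of 19 TTTGAA matches and 20 of 54 CCAAT matches. The overlapping windows of *Bub3* count the same matches again. Positions were not computed for other genes.

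The 6 windows below are shown, each from a different role and with no fewer matches than any other gene of that role, to let the arrangement be read. Capitals mark TTTGAA and CCAAT in either orientation, so that TTCAAA and ATTGG are the same motifs on the other strand. Each is written 5′ to 3′ on the strand of the gene. *Cdc20* and *Ttk* tied with *Bub3* in number of matches, and *Cenpl* and *Cenpq* with *Cenpa*. *Spc25*, *Kntc1* and *Cenpf*, of the other roles, had as many as these and are not shown. The *Cdca8* window is chr4:124936868-124937167 on the minus strand and has 4 CCAAT and 1 TTTGAA, the last CCAAT sharing a base with the TTTGAA. *Ska2* is chr11:87109011-87109310 on the plus strand with 5 CCAAT, and *Mis12* is chr11:71019361-71019660 on the plus strand with 4 CCAAT. *Aurka* is chr2:172370521-172370820 on the minus strand, *Bub3* chr7:131560120-131560419 on the plus strand and *Cenpa* chr5:30666636-30666935 on the plus strand, each with 2 CCAAT and 1 TTTGAA.
*Cdca8*: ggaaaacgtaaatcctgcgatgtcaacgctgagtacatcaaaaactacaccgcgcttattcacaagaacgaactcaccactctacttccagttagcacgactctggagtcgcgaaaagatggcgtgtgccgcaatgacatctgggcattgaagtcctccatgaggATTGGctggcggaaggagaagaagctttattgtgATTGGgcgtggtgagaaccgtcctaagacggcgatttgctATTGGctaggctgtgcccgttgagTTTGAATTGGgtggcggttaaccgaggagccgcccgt
*Ska2*: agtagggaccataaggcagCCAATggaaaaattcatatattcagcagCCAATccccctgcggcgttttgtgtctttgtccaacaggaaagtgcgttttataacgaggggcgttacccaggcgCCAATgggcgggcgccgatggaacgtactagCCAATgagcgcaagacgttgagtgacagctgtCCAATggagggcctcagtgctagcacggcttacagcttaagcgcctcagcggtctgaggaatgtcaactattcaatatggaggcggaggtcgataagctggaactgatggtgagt
*Mis12*: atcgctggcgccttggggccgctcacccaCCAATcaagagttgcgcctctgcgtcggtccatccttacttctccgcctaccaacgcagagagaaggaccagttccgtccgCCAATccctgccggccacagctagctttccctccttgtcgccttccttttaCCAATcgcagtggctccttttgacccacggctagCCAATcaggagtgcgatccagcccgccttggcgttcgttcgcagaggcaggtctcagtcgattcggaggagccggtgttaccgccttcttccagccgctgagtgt
*Aurka*: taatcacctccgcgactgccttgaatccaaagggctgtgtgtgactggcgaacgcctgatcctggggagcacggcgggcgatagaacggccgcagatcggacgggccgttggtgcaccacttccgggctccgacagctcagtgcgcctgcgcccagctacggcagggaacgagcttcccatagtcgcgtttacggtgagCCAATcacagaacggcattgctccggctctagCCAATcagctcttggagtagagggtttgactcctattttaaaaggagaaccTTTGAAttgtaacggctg
*Bub3*: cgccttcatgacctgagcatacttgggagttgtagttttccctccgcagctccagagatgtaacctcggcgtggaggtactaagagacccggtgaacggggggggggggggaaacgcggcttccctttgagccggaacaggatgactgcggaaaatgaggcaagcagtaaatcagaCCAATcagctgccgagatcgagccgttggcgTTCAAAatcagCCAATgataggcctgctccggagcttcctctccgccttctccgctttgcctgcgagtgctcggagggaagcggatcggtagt
*Cenpa*: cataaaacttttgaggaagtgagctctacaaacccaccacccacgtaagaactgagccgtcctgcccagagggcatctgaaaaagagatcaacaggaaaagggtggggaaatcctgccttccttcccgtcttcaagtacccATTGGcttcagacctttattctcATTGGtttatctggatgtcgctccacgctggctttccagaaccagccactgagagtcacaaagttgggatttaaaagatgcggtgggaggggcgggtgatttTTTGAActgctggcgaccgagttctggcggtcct

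Spread within a genotype was unequal. The coefficient of variation over 3 libraries had a median of 7.68% in HET, 14.6% in WT and 15.45% in MUT over the 41 genes that averaged 5 FPKM or more, against 7.89%, 13.0% and 11.7% over all loci at that level. The tightest was *Cenph* in HET at 1.54%. The widest was *Cenpk* in MUT at 39.4%, at 18.4, 39.4 and 24.4 FPKM.

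**Figure D1:**
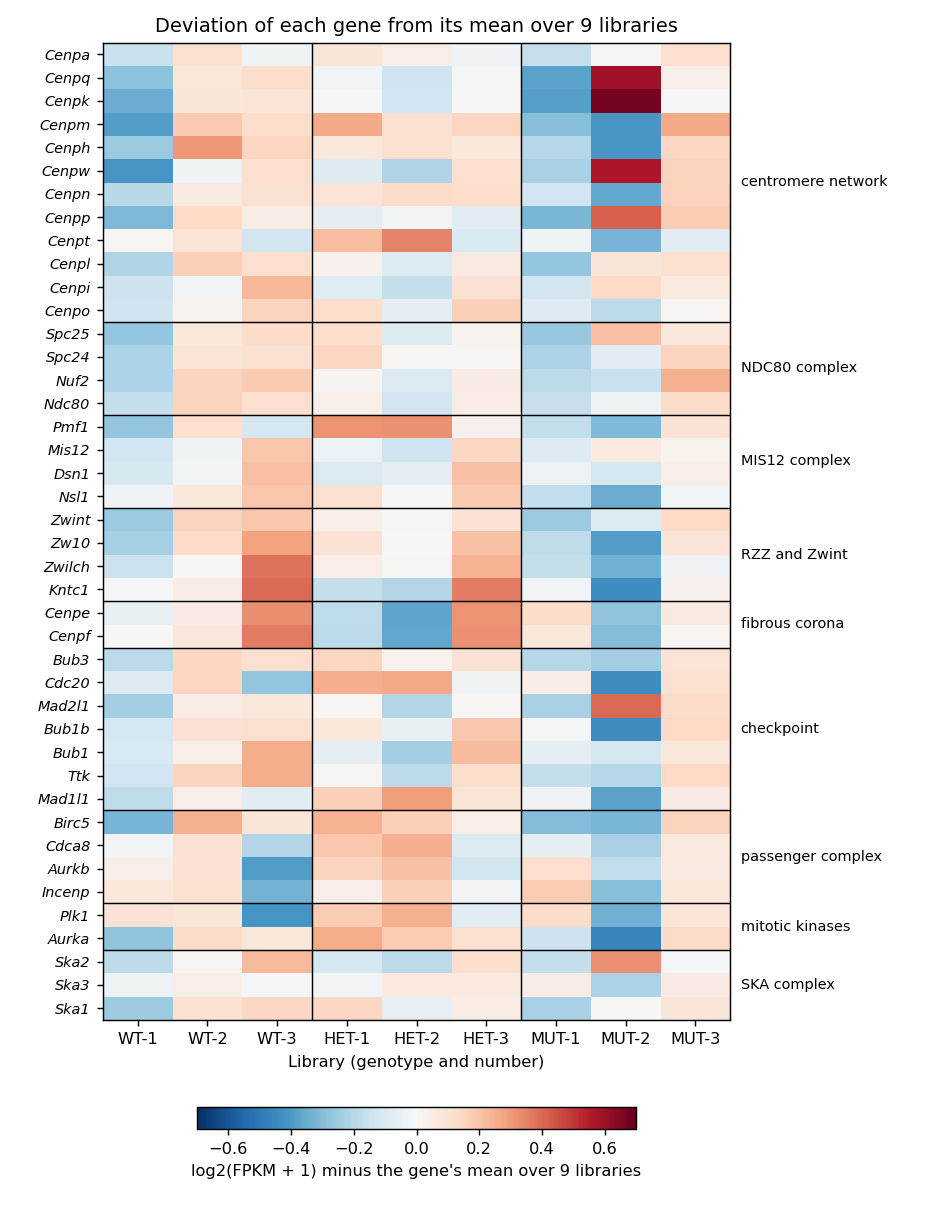
Deviation of all 42 genes (rows, grouped by role) in each of the 9 libraries (columns), as log2(FPKM + 1) minus the gene's mean over the 9 libraries, with red above and blue below that mean. MUT-2 holds both the deepest blue and the deepest red cells, from -0.46 for *Aurka* to 0.67 for *Cenpk*, and WT-1 and MUT-1 are pale blue for most genes.

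The comparison of MUT with HET, which share the *Foxd1* insertion, is the one the study used for the loss of the second *Ntn1* allele. Genes of the RZZ complex, the passenger complex, the mitotic kinases and most of the checkpoint averaged lower in MUT, by at most 0.35 on the log2 scale, whereas *Cenpw*, *Mad2l1*, *Cenpp*, *Cenpk*, *Cenpq* and *Ska2* averaged higher by 0.11 to 0.23. The higher averages rested on MUT-2, the highest library for all 6, and without it (and without the replicate block) they lay between -0.15 and 0.02. Of the genes lower in those 4 roles, *Kntc1*, *Aurkb*, *Incenp*, *Bub1* and *Ttk* turned above 0 without it, by at most 0.06. Single-gene differences given below without MUT-2 or HET-2 are also without the block. No gene passed the test. Of the 41 genes tested (*Cenpo* lay under 5 FPKM in both groups), 31 had a log2 fold change below 0 and 10 above 0, where 54.1% of all 10081 loci tested lay below 0. The median was -0.08 over the 41 genes and -0.02 over all loci, and single genes ran from -0.35 to 0.23 with standard errors of 0.12 to 0.19.

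None of the 41 genes, and 0 of all loci tested (0%), had an adjusted p under 0.05 in limma with Benjamini-Hochberg adjustment. The smallest adjusted p of a kinetochore gene was 0.933, and over the alternatives described at the end it ran from 0.0708 to 1. *Zwilch*, *Nsl1* and *Aurka*, all lower in MUT, were the 3 genes with an unadjusted p under 0.05, where 4.90% of all loci passed the same threshold. The count was 0 without MUT-2 and 2 without HET-2, both without the block, where 3.38% and 2.92% of loci passed. It was 3 without replicate number 1, 0 without replicate number 2 and 12 without replicate number 3, where 2.65%, 1.72% and 21.4% of loci passed. The 3 MUT libraries lay wholly below the 3 HET libraries for *Zwilch*, *Nsl1* and *Mad1l1*, where 4.50% of all loci did. They lay wholly above HET for no kinetochore gene, where 5.19% of all loci did. With 3 libraries against 3, an exact two-sided permutation test cannot give p under 0.1.

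The count of lower genes rested unequally on single libraries. Without MUT-2 it was 28 of 41 (68.3%) and without HET-2 it was 34 of 41 (82.9%). Without HET-3 it was 24 of 41 (58.5%), the lowest count of any single library left out. Of all loci tested, 55.2%, 53.9% and 54.3% lay lower under those same omissions. The median of the 41 genes moved most without MUT-3, to -0.16, and was -0.12 without HET-2. By same-numbered libraries, 35 of 42 genes were lower in MUT-1 than in HET-1, 27 in MUT-2 than in HET-2 and 17 in MUT-3 than in HET-3. MUT-3 was thus not below HET-3 for most of these genes. The share of all loci was not computed for these pairs. The number of genes whose libraries did not overlap and lay lower in MUT went from 3 to 14 without MUT-3, to 11 without HET-3 and to 5 without HET-2. The share of all loci wholly lower in MUT went from 4.50% to 21.8%, 18.3% and 7.09% under those same omissions. Without MUT-1, 5 genes lay wholly higher in MUT (12.2%), where 10.4% of all loci did.

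**Figure D2:**
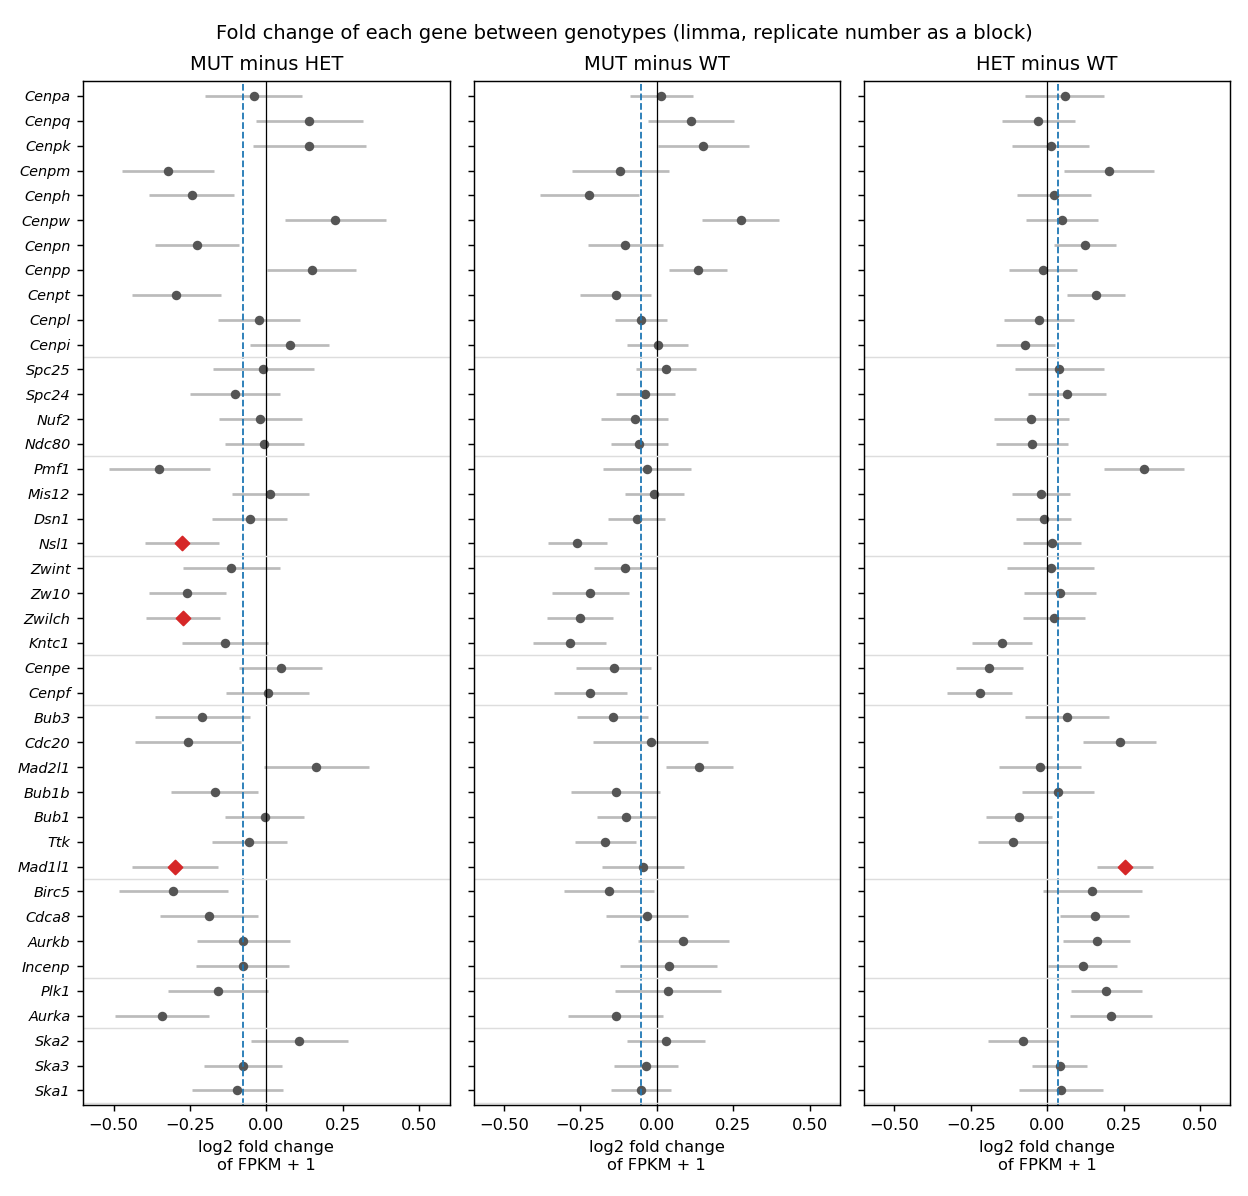
Log2 fold change of FPKM + 1 for the 41 genes tested (rows, with faint lines between roles) in the 3 comparisons (panels). Bars are standard errors from limma, the dashed line is the median of the 41 genes, and red diamonds mark genes whose 3 libraries of 1 genotype do not overlap the 3 of the other. In MUT minus HET the median lies at -0.08 and the diamonds are *Nsl1*, *Zwilch* and *Mad1l1*; in HET minus WT the median lies at 0.04 and the only diamond is *Mad1l1*.

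At the inner kinetochore, *Cenpa* (chromosome 5, 30666886 to 30674837, mm10) marks the centromere. Its FPKM was 90.3, 109.0 and 98.8 across WT, 106.8, 103.6 and 99.2 across HET, and 90.1, 101.7 and 109.6 across MUT. The genotypes overlapped, and the MUT minus HET log2 fold change was -0.04 (s.e. 0.16, adjusted p = 0.977, limma). The 11 other genes of the centromere network included groups that differed in opposite directions. *Cenpk*, *Cenpq*, *Cenpw* and *Cenpp* averaged higher in MUT than in HET by 0.14 to 0.23, and each had its highest level of all 9 libraries in MUT-2. Without MUT-2 and without the replicate block they differed by -0.15, -0.11, 0.02 and -0.02. *Cenpm*, *Cenpt*, *Cenph* and *Cenpn* averaged lower by 0.23 to 0.32, and each had its lowest level of all 9 libraries in MUT-2. Without MUT-2 their differences were -0.19, -0.20, -0.12 and -0.10. The protein products of *Cenph* and *Cenpk* sit in 1 subcomplex, as do those of *Cenpt* and *Cenpw*. The opposite directions of *Cenph* and *Cenpk* rested on MUT-2, since both lay lower in MUT without it. *Cenpt* and *Cenpw* kept opposite signs without MUT-2, at -0.20 and 0.02, against -0.30 and 0.23 with it. *Cenpl* and *Cenpi* differed by -0.02 and 0.08, and *Cenpo* ran from 3.37 to 4.55 FPKM over all 9 libraries.

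*Cenph* FPKM was 23.7, 24.3 and 23.7 across HET and 19.4, 16.6 and 24.8 across MUT. *Cenpk* FPKM was 24.4, 22.1 and 24.4 in the HET libraries. *Cenpw* FPKM was 20.5, 18.8 and 23.8 across HET and 18.5, 32.8 and 24.4 across MUT. In both *Cenpk* and *Cenpw*, MUT-1 lay below every HET library and MUT-2 above every HET library. These 3 genes were singled out after their values were seen.

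The outer kinetochore binds the microtubule. *Spc25* (chromosome 2, 69193895 to 69206213) had 64.6, 82.2 and 85.4 FPKM across WT, 85.1, 73.0 and 79.4 across HET, and 64.8, 90.6 and 82.3 across MUT. In 7 of the 9 libraries the 4 NDC80 genes deviated to the same side. All 4 were lowest of the 9 libraries in WT-1 and below their own mean in MUT-1, and all 4 were above it in WT-2, WT-3, HET-1, HET-3 and MUT-3. Most of the 41 kinetochore genes deviated to the same sides, so this was not particular to NDC80. Of the 41, 37 lay below their mean in WT-1 and 34 in MUT-1. Above it lay 37 in WT-2, 31 in WT-3, 29 in HET-1, 32 in HET-3 and 37 in MUT-3. They split in MUT-2, where *Spc25* deviated by 0.21 and the other 3 by -0.15 to -0.04, and in HET-2, where *Spc24* deviated by 0.02 and the others by -0.13 to -0.10. Their MUT minus HET log2 fold changes lay between -0.10 and -0.01, and that of *Spc25* was -0.01 (s.e. 0.17, adjusted p = 0.996, limma) and -0.11 without MUT-2.

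In the MIS12 complex, which bridges the centromere network and NDC80, *Pmf1* (chromosome 3, 88394143 to 88410316) encodes the Nnf1 subunit. Its FPKM was 52.7, 69.6 and 58.9 across WT, 79.9, 80.5 and 65.7 across HET, and 56.7, 51.5 and 69.0 across MUT. HET-1 and HET-2 were the highest of the 9 libraries, and MUT-3 lay above HET-3. The MUT minus HET log2 fold change was -0.35 (s.e. 0.17, adjusted p = 0.933, limma), the most negative of the 41 genes. *Nsl1* (chromosome 1, 191063021 to 191084558), a second subunit, had 13.4, 14.5 and 15.8 FPKM across WT, 14.9, 13.6 and 15.7 across HET, and 12.01, 10.5 and 13.5 across MUT. The highest MUT library lay just under the lowest HET library. The log2 fold change was -0.28 (s.e. 0.12, unadjusted p = 0.0413, adjusted p = 0.933, limma), and an exact two-sided permutation test gave p = 0.1, the smallest it allows. The fold change of *Nsl1* was -0.19 without MUT-2 and -0.33 without HET-2. *Dsn1* and *Mis12*, the other 2 subunits, differed by -0.05 and 0.01.

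The RZZ complex recruits Mad1 and dynein to kinetochores without microtubules. *Zwilch* (chromosome 9, 64117147 to 64172931) had 15.0, 16.8 and 22.2 FPKM across WT, 17.3, 16.9 and 20.03 across HET, and 14.9, 13.1 and 16.5 across MUT. All MUT libraries lay below all HET libraries, by a gap of under 1 FPKM between MUT-3 and HET-2. The log2 fold change was -0.27 (s.e. 0.12, unadjusted p = 0.0411, adjusted p = 0.933, limma), and the exact two-sided permutation test gave p = 0.1. The fold change of *Zwilch* was -0.19 without MUT-2 and -0.32 without HET-2. The other RZZ subunits, *Zw10* and *Kntc1* (the Rod subunit), differed by -0.26 and -0.14, and the libraries of both overlapped. Without MUT-2 they differed by -0.14 and 0.01. *Zwint* (chromosome 10, 72654846 to 72674964) had 95.9, 128.7 and 131.4 FPKM across WT, 118.0, 114.0 and 123.5 across HET, and 95.8, 107.6 and 126.6 across MUT. MUT-3 was the highest of those 6 Cre libraries for *Zwint*, and its log2 fold change was -0.11 (s.e. 0.16, adjusted p = 0.944, limma). All 4 of these genes had their highest level in WT-3, and *Zwilch*, *Zw10* and *Kntc1* had their lowest in MUT-2.

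The fibrous corona genes had like patterns across libraries. *Cenpe* (chromosome 3, 135212563 to 135273540), a kinesin that moves chromosomes to the spindle equator, had 17.4, 18.8 and 22.8 FPKM across WT, 15.8, 13.7 and 22.7 across HET, and 19.8, 14.7 and 18.9 across MUT. HET-2 was the lowest library, WT-3 and HET-3 were the highest, and the same held for *Cenpf*, the large coiled-coil protein of the corona, and for *Bub1*. The 19 related cohesin, condensin and separase genes also had their lowest median deviation in HET-2 (-0.25) and their highest in WT-3 (0.25) and HET-3 (0.18). MUT minus HET log2 fold changes were 0.05 for *Cenpe* (s.e. 0.14, adjusted p = 0.973, limma) and below 0.01 for *Cenpf*, and both turned below 0 without HET-2, to -0.10 and -0.14.

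Among the checkpoint genes, only *Mad1l1*, which anchors Mad2 at the kinetochore, had MUT and HET libraries that did not overlap. *Mad1l1* (chromosome 5, 140008689 to 140321552) had 14.6, 17.3 and 15.8 FPKM across WT, 18.9, 20.7 and 17.9 across HET, and 16.4, 12.7 and 17.4 across MUT. HET lay above every MUT and every WT library, and MUT and WT overlapped. The MUT minus HET log2 fold change was -0.30 (s.e. 0.14, unadjusted p = 0.0528, adjusted p = 0.933, limma), with an exact two-sided permutation p of 0.1. Without MUT-2 and without the block it was -0.17, and without replicate number 2 it was -0.12. *Bub3* (chromosome 7, 131560391 to 131571898) had 83.5, 105.5 and 103.5 FPKM across WT, 105.7, 96.9 and 102.0 across HET, and 82.7, 80.2 and 101.3 across MUT. MUT-1 and MUT-2 lay below the HET libraries and MUT-3 among them, and the log2 fold change was -0.21 (s.e. 0.16, adjusted p = 0.933, limma).

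The kinase genes of the checkpoint differed less. *Bub1b*, which encodes BubR1, differed by -0.17 (-0.0028 without MUT-2), *Ttk* (Mps1, the kinase that starts the signal) by -0.06 and *Bub1* by -0.01. *Cdc20*, the target of the checkpoint, differed by -0.26 (-0.09 without MUT-2) with 76.1 to 93.2 FPKM in HET and 57.1 to 83.4 in MUT. *Mad2l1*, which binds and inhibits Cdc20, averaged higher by 0.16 (0.02 without MUT-2), with 65.5, 56.2 and 65.4 FPKM across HET and 55.5, 85.9 and 71.3 across MUT. The gene for the Mad2 inhibitor and the gene for its Mad1 anchor were thus at opposite ends of the 9 libraries in MUT-2, where *Mad2l1* was highest and *Mad1l1* lowest.

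Of the chromosomal passenger complex, which corrects wrong attachments, *Birc5* (chromosome 11, 117849237 to 117855743) had 100.3, 149.7 and 133.2 FPKM across WT, 149.0, 141.5 and 129.4 across HET, and 101.5, 100.7 and 140.8 across MUT. MUT-1 and MUT-2 lay beside WT-1, while MUT-3 stood within the HET range. The log2 fold change was -0.30 (s.e. 0.18, adjusted p = 0.933, limma). *Cdca8* (borealin), *Incenp* (the scaffold) and *Aurkb* (the kinase) differed by -0.19, -0.08 and -0.08, and their libraries overlapped.

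Of the mitotic kinases, *Plk1* (chromosome 7, 122159437 to 122169875), which acts at kinetochores and at the spindle, had 56.4, 55.8 and 39.2 FPKM across WT, 59.6, 62.7 and 49.8 across HET, and 57.6, 41.5 and 55.8 across MUT. Its log2 fold change was -0.16 (s.e. 0.16, adjusted p = 0.933, limma), and -0.01 without MUT-2 and without the block. *Aurka* (chromosome 2, 172356190 to 172370570), the spindle pole kinase, was singled out for its unadjusted p. It had 33.4, 44.6 and 43.2 FPKM across WT, 49.1, 46.3 and 44.1 across HET, and 36.8, 29.3 and 44.8 across MUT. MUT-1 and MUT-2 lay below every HET library and MUT-3 above HET-3. The log2 fold change of *Aurka* was -0.34 (s.e. 0.15, unadjusted p = 0.0436, adjusted p = 0.933, limma), and -0.19 without MUT-2 and without the replicate block.

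In the SKA complex, *Ska2* (chromosome 11, 86583865 to 87555823, a joined locus) had 45.3, 51.7 and 60.3 FPKM across WT, 47.2, 45.1 and 56.0 across HET, and 45.8, 64.4 and 50.9 across MUT. MUT-2 was its highest library, and its log2 fold change was 0.11 (s.e. 0.16, adjusted p = 0.946, limma). *Ska1* and *Ska3* differed by -0.09 and -0.08.

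**Figure D3:**
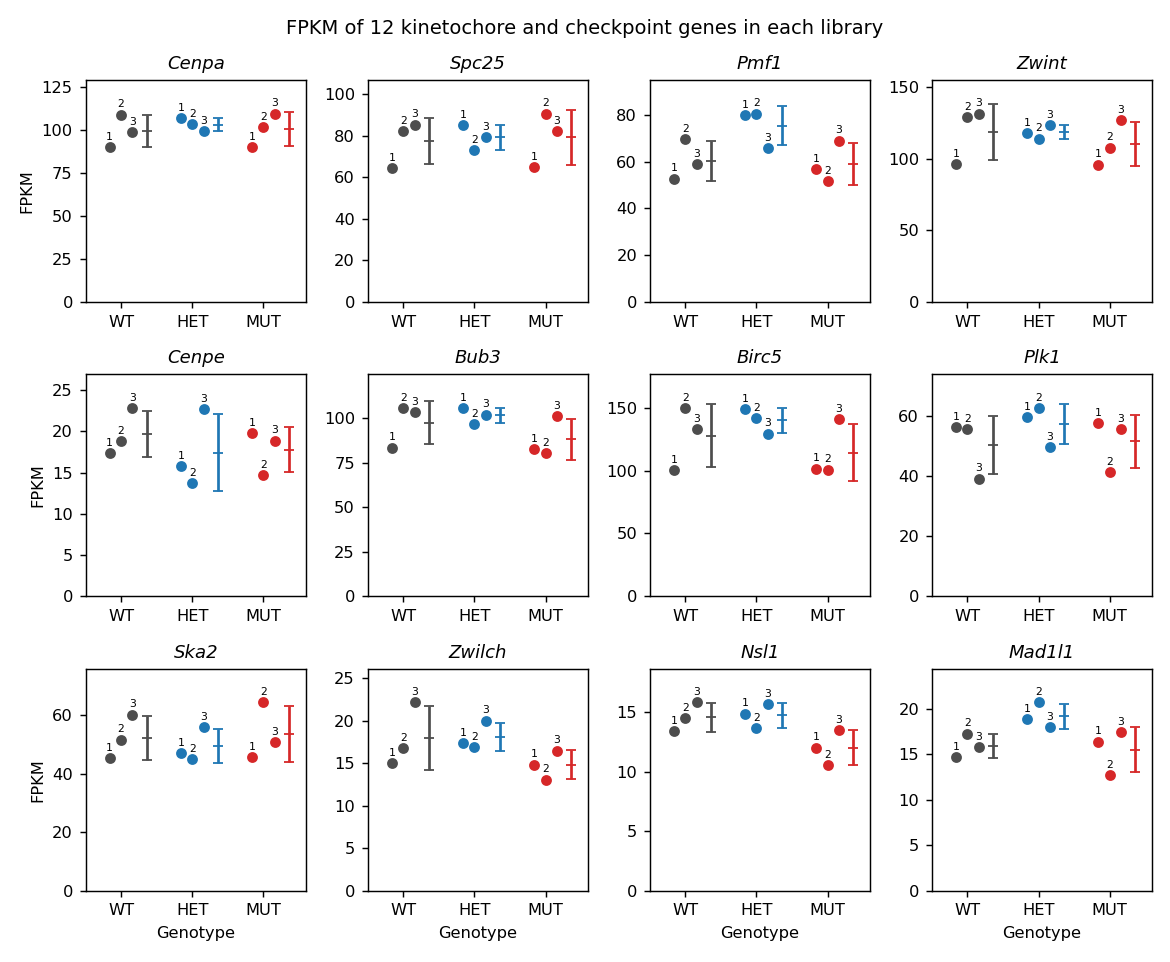
FPKM (linear axis from 0) of 12 genes in each library, by genotype, with the library number beside each point and the mean and s.d. of 3 libraries to the right of the points. *Zwilch*, *Nsl1* and *Mad1l1* are the genes with all MUT points below all HET points, and *Spc25* and *Ska2* have their highest point in MUT-2.

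MUT and WT differ in the *Foxd1* insertion as well as in *Ntn1*. Here 29 of 41 genes had a log2 fold change below 0, where 51.3% of 10096 loci did, with a median of -0.05 against -0.0035 for all loci. None of the 41 genes and 0 of all loci (0%) had an adjusted p under 0.05 (limma, smallest adjusted p of these genes 0.995). At an unadjusted p under 0.05 there was 1 gene, *Nsl1*, where 1.99% of all loci passed. No kinetochore gene had non-overlapping libraries in either direction, where 1.32% of loci lay wholly higher in MUT and 1.34% wholly lower. Without WT-1, 11 genes lay wholly lower in MUT (10.8% of loci) and without MUT-3, 5 did (6.31%), while without MUT-1, 3 genes lay wholly higher (6.21%). *Nsl1* differed by -0.26 (s.e. 0.10, unadjusted p = 0.0334, adjusted p = 0.995, limma) and *Zwilch* by -0.25 (s.e. 0.11, adjusted p = 0.995, limma), both through overlapping libraries. With the block removed, *Zwilch* differed by -0.10 when WT-3 was left out and by -0.17 when MUT-2 was. *Nsl1* differed by -0.20 and -0.18 under the same omissions. *Mad1l1* differed by -0.04 (s.e. 0.13, adjusted p = 0.995, limma). The count of lower genes was 27 of 41 without MUT-2, 22 without WT-2 and 35 without WT-1. Of all loci tested, 54.1%, 48.1% and 55.25% lay lower under those same omissions. The median of the 41 genes was -0.01 without WT-2, -0.14 without WT-1 and -0.13 without MUT-3.

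HET and WT differ by the *Foxd1* insertion and by the Cre acting on 1 floxed *Ntn1* allele. Passenger complex and mitotic kinase genes averaged higher in HET and corona genes averaged lower, all within overlapping libraries. Of the 41 genes, 26 had a log2 fold change above 0 and 15 below, where 47.6% of 10105 loci lay below 0, and the median was 0.04 against 0.01 for all loci. None of the 41 genes and 0 of all loci (0%) had an adjusted p under 0.05 (limma, smallest adjusted p of these genes 0.994). *Mad1l1* and *Pmf1* had an unadjusted p under 0.05, where 2.31% of all loci did. *Mad1l1* was the only gene whose HET libraries lay wholly above WT, where 2.15% of all loci did, and none lay wholly below, where 1.06% did. Without WT-1, 10 genes lay wholly below (8.28% of loci), and without HET-3, 8 lay wholly above (17.7%). Its log2 fold change was 0.26 (s.e. 0.09, unadjusted p = 0.0244, adjusted p = 0.994, limma) and that of *Pmf1* was 0.32 (s.e. 0.13, unadjusted p = 0.0424, adjusted p = 0.994, limma). *Zwilch* and *Nsl1* differed by 0.02 and 0.02 (s.e. 0.10 and 0.09).

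The direction in HET against WT rested on single libraries. Without WT-1, 29 of 41 genes lay lower in HET and the median was -0.08. Without HET-3 the count was 22 lower, without HET-2 it was 8, and without WT-3 it was 6. Of all loci tested, 51.0% lay lower without WT-1, 45.9% without HET-3, 45.8% without HET-2 and 43.1% without WT-3. With each library corrected for transcript GC content, 36 genes lay higher and 5 lower, and with GC content and length corrected together the split was 26 and 15. The comparisons share libraries: HET enters this one and MUT against HET, and WT enters this one and MUT against WT, so the values of *Mad1l1*, *Pmf1* and *Aurka* in HET bear on both of theirs.

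MUT-2 set the extremes of many of these genes, and set them in both directions. It was the lowest of 9 libraries for 18 of the 41 genes (43.9%, against 18.6% of loci at that level) and the highest for 7 (17.1%, against 15.0%), while WT-3 was the highest for 13. The 7 were *Cenpk*, *Cenpq*, *Cenpw*, *Cenpp*, *Mad2l1*, *Ska2* and *Spc25*. Their transcripts had a median GC content of 40.7%, from 35.8% to 43.2%. The genes lowest in MUT-2, *Cenpo* included, had a median of 47.9%, from 43.0% to 56.8%, and the median of all 42 genes was 46.4%. Across the 41 genes, which share 1 library, Pearson's r between the deviation in MUT-2 and GC content was -0.674, against -0.112 across 9642 loci. The inverse relation in MUT-2 was thus strong across these genes and weak over the transcriptome. It was not computed for the related gene lists.

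Other libraries had relations of the same kind. Each deviation is taken from the gene's mean over the 9 libraries, so relations in different libraries are tied to each other. In HET-2, r with GC content was 0.726 across the 41 genes and 0.316 across loci, and in HET-1 it was 0.656 and 0.228. In WT-3 it was -0.583 and -0.528. With log2 transcript length, r across the 41 genes was -0.546 in HET-2, 0.467 in HET-3 and 0.003 in MUT-2. Across loci it was -0.262, 0.220 and 0.053 in those libraries. In MUT-1, WT-1 and HET-1, r with length was 0.272, 0.342 and -0.532 across the 41 genes. Across loci it was 0.542, 0.457 and -0.395 there. *Aurka*, *Plk1*, *Mad1l1* and *Cdc20*, whose transcripts held 51.4% to 56.8% GC, were high in HET-1 and HET-2 and low in MUT-2. GC content and length were not recorded as part of the design, and their part in the MUT and HET difference was not tested beyond the corrections given. After correction for GC content the count of genes lower in MUT than HET was 32 of 41, and after correction for GC content and length together it was 28.

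**Figure D4:**
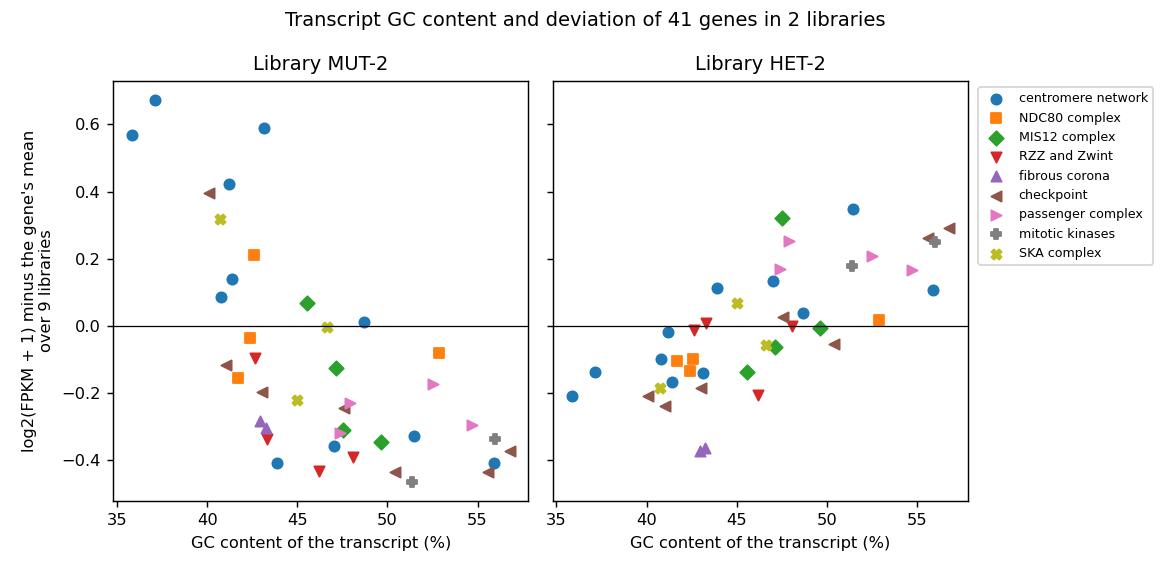
Transcript GC content in percent (x axis) against the deviation from the gene's mean over 9 libraries on the log2(FPKM + 1) scale (y axis) for 41 genes in MUT-2 (left) and HET-2 (right), with colour and shape giving the role. In MUT-2 the points run downward (r = -0.674) and in HET-2 upward (r = 0.726).

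In the promoter windows of *Aurka* and *Bub3* the CCAAT boxes precede the TTTGAA or stand on both sides of it, and in *Cenpa* both boxes lie upstream of a TTTGAA close to the start. *Ska2* and *Mis12* hold CCAAT boxes alone. Of the 18 genes with TTTGAA, 16 lay below 0 in MUT minus HET, with a median log2 fold change of -0.15, and of the 17 tested genes without it, 9 did, with a median of -0.01. Over all loci with a window, 59.8% of the 1029 with TTTGAA and 53.5% of the 6579 without it lay lower in MUT. The split among the kinetochore genes depended on MUT-2: without that library and without the block, 12 of 18 genes with TTTGAA and 12 of 17 without it lay lower, with medians of -0.07 and -0.03. The groups also differed in transcript GC content, with medians of 47.3% and 42.9%, and the part of GC content in the split was not tested.

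Related gene lists, drawn up by name and function, were read beside these genes in MUT against HET. Of 18 other kinetochore and shugoshin genes, 14 lay lower with a median of -0.07. Of 35 mitotic cyclins, regulators and motors, 29 lay lower with a median of -0.13, and of 26 genes of the DNA replication origin and fork, 23 did with a median of -0.17. Of 15 anaphase promoting complex genes, 11 lay lower with a median of -0.06, whereas 8 of 19 cohesin, condensin and separase genes did, with a median of 0.02. No gene of these lists had an adjusted p under 0.05 (limma, smallest 0.933). An unadjusted p under 0.05 was found for 4, 3 of them lower in MUT, where 4.90% of all loci passed. In HET against WT, 23 of the 26 replication genes lay higher, with a median of 0.07, and 9 of the 15 anaphase promoting complex genes did. Fewer lay higher in the other lists: 8 of 18 other kinetochore and shugoshin genes, 16 of 35 mitotic genes and 5 of 19 cohesin genes. Of the 41 kinetochore genes described here 26 lay higher, and of all 10105 loci tested 5295 did.

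*Cdc7*, the kinase that fires replication origins and a gene the study named with *Zwilch* and *Nsl1*, had 22.1, 18.7 and 23.9 FPKM across HET and 18.2, 13.1 and 19.8 across MUT. Its libraries overlapped, and its log2 fold change was -0.34 (s.e. 0.12, unadjusted p = 0.0181, adjusted p = 0.933, limma). The locus that holds *Hjurp*, the chaperone that loads CENP-A, is joined with 2 other gene names and lay wholly lower in MUT at -0.39. *Cenpb*, a binder of centromere DNA at a long joined locus, lay wholly higher at 0.37. *Mcm7* and *Mcm5*, subunits of the replicative helicase, lay wholly lower at -0.37 and -0.28, as did *Nek2*, *Bora*, *Anapc5* and *Ncaph* at -0.25 to -0.19. Libraries did not overlap, in either direction, for 11.1% of the other kinetochore list and 5.71% of the mitotic list. The shares were 6.67% of the anaphase promoting complex list, 5.26% of the cohesin list and 7.69% of the replication list. Over all loci tested the share was 9.69%. MUT-2 was the lowest of 9 libraries for 22 of the 35 mitotic genes and 15 of the 26 replication genes, beside 18 of the 41 kinetochore genes. It was the lowest for 5 of the 18 other kinetochore genes, 3 of the 15 anaphase promoting complex genes and 6 of the 19 cohesin genes. Over all loci with a mean of at least 5 FPKM the share was 18.6%.

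**Figure D5:**
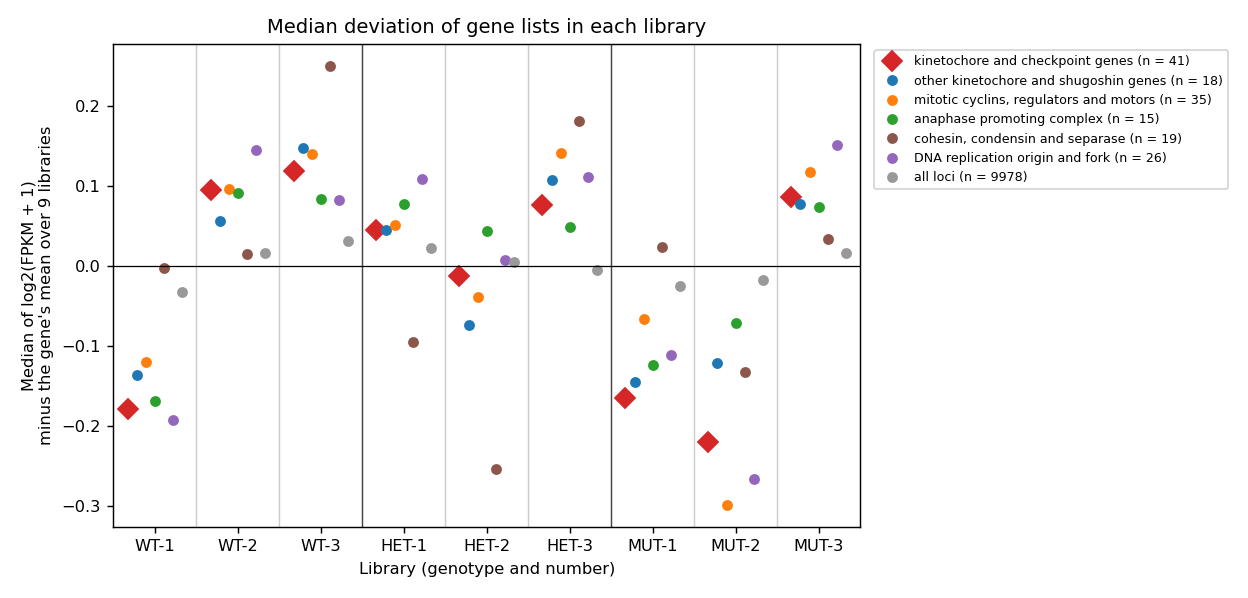
Median deviation in each library (x axis) of the kinetochore and checkpoint genes (red diamonds), 5 related lists and all loci with a mean of at least 5 FPKM (grey), on the log2(FPKM + 1) scale (y axis). The kinetochore genes lie at -0.22 in MUT-2, -0.17 in MUT-1 and -0.18 in WT-1, and between -0.01 and 0.12 in the other 6 libraries, while all loci stay between -0.03 and 0.03.

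Summed levels of marker lists are given beside these values and do not measure cell proportions. The stromal progenitor list includes *Foxd1* and *Ntn1*, the genes that the alleles themselves alter. The 6 nephron progenitor markers summed to 233 to 301 FPKM in WT, 275 to 315 in HET and 259 to 349 in MUT, and the 6 stromal progenitor markers to 412 to 465, 429 to 442 and 419 to 455. The 13 erythroid markers, 11 of which were found, summed to 3495 FPKM in HET-2 against 1921 to 2296 in the other libraries. Podocyte markers, of cells that have left the cycle, summed to 145 FPKM in WT-1, 117 in MUT-1 and 135 in MUT-2, the 3 libraries in which the kinetochore genes were lowest, and to 68.2 to 101 in the other 6. Nephron progenitor markers summed to 243, 273 and 259 FPKM in those 3 libraries. The nephron progenitor sum (233 FPKM) and the ureteric tip sum (133 FPKM) were both lowest in WT-3. The median deviation of the kinetochore genes was highest in WT-3, at 0.12. The 6 ureteric tip markers summed to 133 to 173 FPKM over the 9 libraries, the 6 endothelial markers to 201 to 219 and the 6 macrophage markers to 40.7 to 68.9. The part of these cell types in the levels of the kinetochore genes was not tested.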

How the data were processed

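RNA of whole kidneys was extracted with TRIzol and made into TruSeq Stranded mRNA libraries, per the labels. The authors used STAR for alignment, Cufflinks and cuffmerge for transcript assembly and Cuffdiff for quantification, and the deposited values are FPKM per locus and library. Genotype means computed by the authors were also deposited and were not used here. The submitters' processing notes give mm10. The gene annotation, tool versions and use of strand in counting are not given in the sources used here. Read totals per library are unknown, so precision rests on the spread of 3 kidneys per genotype, and no counting interval is given.

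The model was limma 3.58.1 in R 4.3.3 (lmFit, eBayes with trend), two-sided, on FPKM to which 1 was added before taking log2, a scale that understates the change of low genes. A locus was tested where either genotype compared averaged 5 FPKM or more. P values were adjusted by Benjamini-Hochberg over all loci tested, with a threshold of 0.05. Each fit held the 6 libraries of its own pair of genotypes and a term for the replicate number, since a paired test of same-numbered libraries returned the P values in the study's gene lists. The script was tested on simulated data. GENCODE M21 (GRCm38) gave each transcript's GC content and length, and RefSeq gave the promoter windows. Locus starts are counted from 1. Python 3.11.15, pandas 2.3.3, numpy 2.4.6 and scipy 1.17.1 were used.

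The genes and lists were chosen with earlier results of these data known. Values in every library are given for the most abundant gene of each role, for *Zwilch* and *Nsl1*, and for up to 10 genes per comparison whose libraries do not overlap. Outside the 42 genes, *Ntn1*, *Foxd1*, *Cdc7* and up to 4 non-overlapping genes of each related list are given. Other genes named were singled out after their values were seen. *Hbb-bt* and *Epb42*, both erythroid markers, matched no locus.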

Additional observations from a re-analysis of the deposited data

How the results depend on the processing

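Each comparison was repeated without the replicate block, with pseudocounts of 0.1 and 3, with lower, absent or pooled FPKM minimums, after median-ratio, quantile or GC adjustment of the libraries, with all 9 libraries in 1 fit, without the trend, and without each replicate number. GC and length correction together, and fits without MUT-2, HET-2 or WT-3 and without the block, were added after seeing the data. No kinetochore or checkpoint gene reached an adjusted p under 0.05 in limma under any of them. Of these settings, 6 leave every fold change as it was by construction (no block, the 3 FPKM minimums, all libraries in 1 fit, no trend), and under the others 204 of 220 values of single genes kept their direction. Loci called over the whole table were 0 except where libraries were left out. Over replicate numbers left out, which leaves 2 libraries a genotype, they were 30 to 148 for MUT against HET, 1 to 168 for MUT against WT and 1 to 125 for HET against WT. Without the block, 1 locus was called in MUT against HET and 1 in MUT against WT without MUT-2, and 1 in HET against WT without WT-3. Genes lower ranged over replicate numbers left out from 25 to 35 of 41 in MUT against HET, from 19 to 32 in MUT against WT and from 6 to 30 in HET against WT. In HET against WT they were 5 after GC correction, and without the block 8 without HET-2 and 6 without WT-3.

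Directions turned as follows on the log2 scale, and the cause was not tested. In MUT against HET, *Cenpa* was 0.0165 with quantile scaling and -0.1344 to 0.0581 over replicate numbers left out. *Spc25* was 0.0055 with median-ratio scaling, 0.0315 with quantile scaling, 0.0796 with GC and length correction and -0.1688 to 0.1791 over replicate numbers. *Cenpe* was -0.0893 with GC and length correction, -0.0988 without the block and HET-2, and -0.0822 to 0.1978 over replicate numbers. *Plk1* ran from -0.3173 to 0.0559 and *Ska2* from -0.0898 to 0.2306 over replicate numbers, and *Ska2* was -0.0282 without the block and MUT-2. In MUT against WT, *Mad1l1* was 0.0843 without the block and MUT-2, and -0.1429 to 0.1411 over replicate numbers. In HET against WT, *Zwilch* ran from -0.0662 to 0.1022 and *Nsl1* from -0.0465 to 0.0641 over replicate numbers.

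Correlations of the deviations of same-numbered libraries across loci were -0.313, 0.053 and -0.131 for MUT and HET, 0.552, -0.265 and -0.03 for MUT and WT, and -0.197, -0.063 and 0.168 for HET and WT, so the data gave no sign that the numbers pair the samples in every pair. Without the replicate block, 31 of 41 genes lay lower in MUT than in HET, 29 lay lower in MUT against WT and 15 in HET against WT, 0 loci were called in each, and the smallest adjusted p of the 41 genes was 0.738, 0.9998 and 0.998. Read depth is unknown, and the p-values measure the spread among 3 kidneys a genotype.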
